A study of Mus musculus with 12 samples.

Results

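The transporters that carry bile acids and drug or bilirubin conjugates through the hepatocyte were followed across peaks of m6A, the N6-methylated form of adenosine in RNA, in mouse liver. The genes were Slc10a1, Slco1b2, Slco1a1, Abcb11, Abcc2, Abcc3 and Abcc4. Every peak whose deposited gene annotation held 1 of these 7 symbols was taken, which gave 49 of 37118 peaks, and no gene was without a peak. Liver came from male wild-type C57BL/6 mice that entered the study at an age of 6 to 8 weeks. The control group received 0 and the cadmium group 20 mg/kg CdCl2 per day by gavage, and both were sampled at day 90. Each group had 3 samples of immunoprecipitated RNA, labelled as batches 1, 2 and 3, and the protocol states 6 animals per group. The labels do not say that each sample is a separate mouse, so p-values measure only the spread between these samples, which may be technical. Input libraries of the same samples were not used here.

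Hepatocytes take bile acids from the blood through a sodium-dependent carrier and several organic anion carriers on the sinusoidal membrane, and pump them into the bile canaliculus with ATP-driven exporters. Further exporters on the sinusoidal side return bile acids and glucuronides to the blood and are known to be raised in cholestasis. In liver the nuclear receptor FXR, which bile acids activate, induces Abcb11 and restrains uptake and synthesis. A count in an m6A peak rises with the amount of the gene's RNA and with the methylated share of that RNA, and these cannot be told apart here.

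The samples held 40174736 to 52338612 counts in peaks, of which the 2 largest peaks of the table took 4.95 to 19.7%. Peaks of hepatocyte marker genes were abundant in every sample. The 6 markers summed to 16417 to 19028 CPM in control and 14988 to 17041 CPM in cadmium samples. CPM are counts scaled to a common library size by the TMM normalisation of edgeR. Between the groups 0 of 6 were called at an edgeR adjusted p below 0.05. Of the other cell types, Kupffer cell and macrophage markers had peaks for 5 of 6 genes (summed level 88.6 to 120 CPM in control, 128 to 162 CPM in cadmium) and 2 of them, Cd5l and Csf1r, were higher in cadmium. The others were not called and did not share a direction: Clec4f had a log2 change of 0.14, Marco of -0.35 and Vsig4 of -0.81. Endothelial markers had peaks for 4 of 5 genes (69.8 to 111 against 77.3 to 113 CPM), with Lyve1 higher. Pecam1 (log2 change 0.43), Stab2 (0.22) and Kdr (-0.07) were not called. Stellate cell markers had peaks for 5 of 5 genes (134 to 176 against 196 to 226 CPM). Lymphocyte markers had them for 2 of 4 (1.38 to 2.41 against 2.46 to 3.58 CPM). None of these stellate and lymphocyte genes was called, and all their estimates were above 0, from 0.14 (Reln) to 0.84 (Cd3e). Cholangiocyte markers had peaks for 3 of 6 genes (22.4 to 29.6 against 18.7 to 66.7 CPM), with Krt7, Krt19 and Cftr not in the table. Sox9 (log2 change 1.29), Epcam (1.00) and Spp1 (0.77) were all higher in estimate and not called. The part of these cell types in the values below was not tested. In bulk samples fewer cells of a type and less RNA per cell cannot be told apart.

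Whether cadmium changed the m6A signal of the transporters was asked of each peak and of each gene. None of the 49 peaks passed the test: edgeR's quasi-likelihood test of 3 cadmium against 3 control samples called 0 of 49 at an adjusted p below 0.05 (Benjamini-Hochberg over all peaks), against 6.27% of the 37088 peaks tested (3.55% higher and 2.72% lower in cadmium). Their adjusted p ran from 0.128 to 0.982. At an unadjusted p below 0.05 there were 4 (8.16% of the 49), against 21.8% of all tested peaks: 3 peaks with the Abcc2 symbol with lower values in cadmium (9.95% of all peaks) and 1 of Slco1b2 with higher values. Those with the Abcc2 symbol were peaks 10, 11 and 12, counted from the gene's start. Peaks 11 and 12 lie past the end of the RefSeq gene, over the long noncoding RNA Gm10768. DESeq2 called 1 of the 49 (3710 of 37087, 10% of all peaks), a fit with the replicate number as a block called another 1 (8.48% of all peaks), and the fit without cadmium replicate 1 called 2 (4.56% of all peaks). All of them carry the Abcc2 symbol and are described below: peak 12 with DESeq2, peak 11 with the block, and peaks 1 and 11 without cadmium replicate 1. The median log2 change was -0.11 over the 49 peaks and -0.00 over all peaks, with 33 estimates below 0 and 16 above. All cadmium samples lay below all control samples in 6 of the 49 peaks (12.5% of all peaks) and above them in 2 (14.4% of all peaks).

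The precision of this result is given by the intervals. For 35 of the 49 peaks (71.4%, against 78.8% of all peaks) the 95% interval of the change lay within a 2-fold rise and a 2-fold fall. The other 14 intervals reached 2-fold or more in at least 1 direction, among them all 6 of Slco1a1. With the counts of all peaks of a gene summed, 0 of 7 genes were called (10.2% of 13050 gene sums) and 0 of 7 had an unadjusted p below 0.05. The values of the 2 groups overlapped in 7 of 7 genes, where 31.4% of all gene sums had groups that did not overlap. The sums of 6 genes had log2 changes below 0 and that of Abcb11 was above 0. For 5 of the 7 sums the interval lay within 2-fold; Slco1a1 and Abcc4 were the exceptions.

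**Figure D1:**
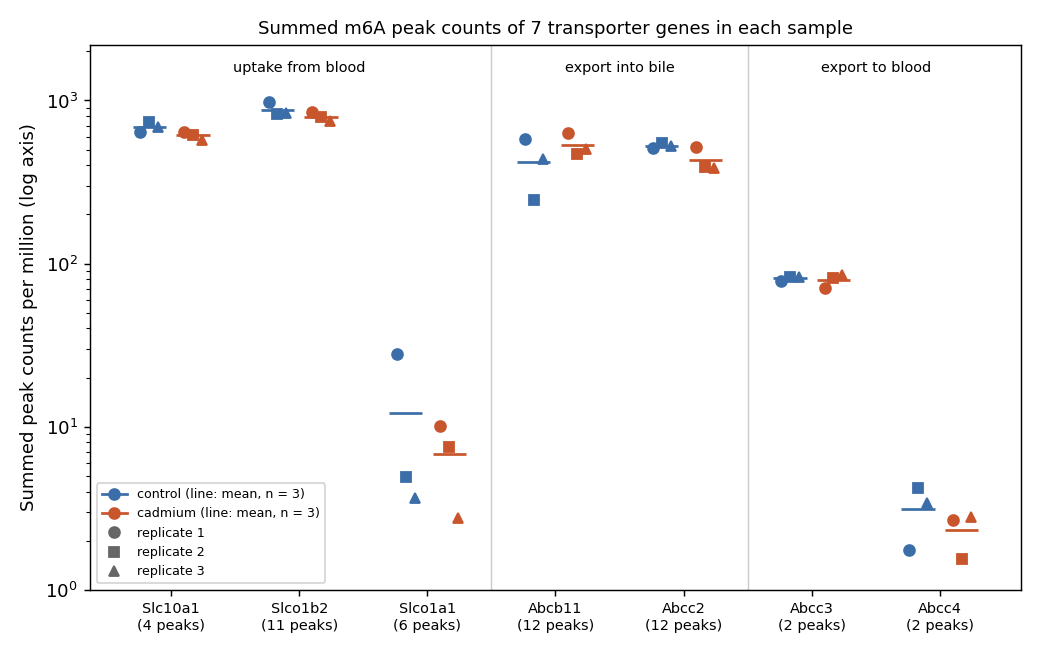
Summed peak level (CPM, log axis) of each of the 7 transporter genes in the 3 control and the 3 cadmium samples, with a line at each group mean; marker shapes give the replicate number. Control and cadmium samples overlap in every gene, and control replicate 2 of Abcb11 (247 CPM) and control replicate 1 of Slco1a1 (27.9 CPM) stand apart from their groups.

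**Figure D2:**
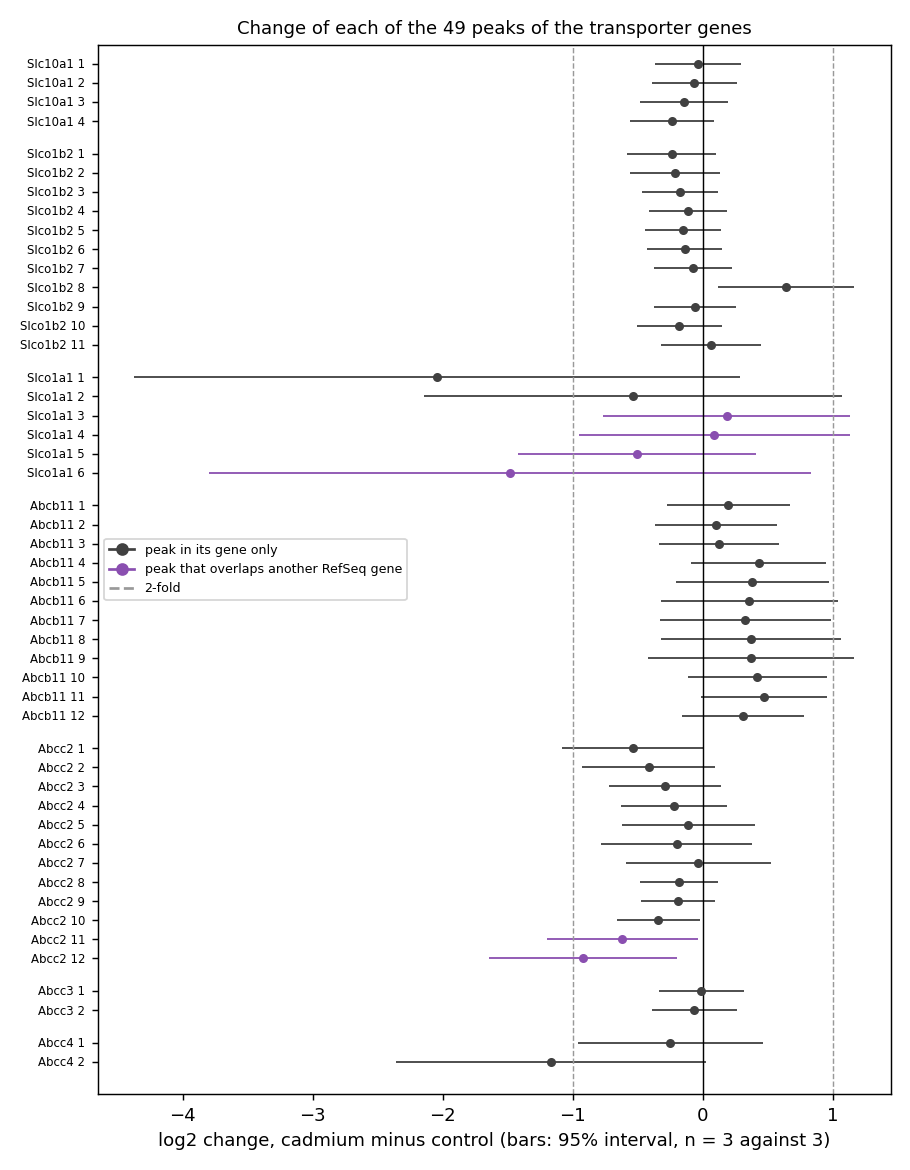
Log2 change (cadmium minus control) of each of the 49 peaks with its 95% interval, n = 3 against 3, numbered from the gene's start to its end (for Abcc3, whose strand was not given, by coordinate). All 12 estimates of Abcb11 lie above 0 and all 12 of Abcc2 below 0, most intervals cross 0, and the widest are those of peaks 1, 6 and 2 of Slco1a1.

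Uptake from blood was represented by Slc10a1, the sodium-dependent taurocholate carrier NTCP, and by the organic anion carriers Slco1b2 and Slco1a1. Slc10a1 had 4 peaks on chromosome 12. Its summed level was 644, 739 and 691 CPM in control replicates 1, 2 and 3 and 645, 616 and 575 CPM in cadmium replicates 1, 2 and 3. The lowest control sample and the highest cadmium sample were level, so the groups overlapped. The log2 change was -0.18 ± 0.12 (SE), a fold of 0.885 (95% interval 0.738 to 1.06), and did not pass the test (edgeR adjusted p = 0.374). Its most abundant peak (80953255 to 80953814, on mm10 like all coordinates here) lay at 97.7% of the gene's length and held 363, 483 and 403 CPM in control and 380, 349 and 332 CPM in cadmium samples. That peak also had the most negative estimate of the 4, a log2 change of -0.23 (adjusted p = 0.392), which was -0.12 without control replicate 2.

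Slco1b2 encodes OATP1B2, which takes up bile acids, bilirubin and many drugs and is expressed almost only in hepatocytes. It had 11 peaks on chromosome 6, with a summed level of 974, 826 and 838 CPM in control and 853, 791 and 746 CPM in cadmium samples. Only cadmium replicate 1 reached above the lower control samples. The log2 change was -0.14 ± 0.12 (SE), with an interval of -0.42 to 0.13 (adjusted p = 0.500), and was -0.062 without control replicate 1. The most abundant peak (141685349 to 141686152) held 360, 289 and 282 CPM in control and 298, 272 and 253 CPM in cadmium samples, a log2 change of -0.18 (adjusted p = 0.530), which was -0.058 without control replicate 1.

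The peaks of Slco1b2 did not all lean the same way. Peaks 3, 5 and 6, counted from the gene's start, had every cadmium sample below every control sample, with log2 changes of -0.18, -0.15 and -0.14. Peak 8 (141670199 to 141670616), at 71.6% of the gene's length, had the opposite order: 20.1, 21.4 and 16.9 CPM in control and 24.8, 43.6 and 22.9 CPM in cadmium samples. The high value was that of cadmium replicate 2, and the other cadmium samples were just above the controls. Its log2 change of 0.65 ± 0.24 (SE) had an unadjusted p of 0.0203 and did not pass the test (adjusted p = 0.139); without cadmium replicate 2 it was 0.29 (adjusted p = 0.442). Each peak was also tested against the other peaks of its gene (edgeR's diffSpliceDGE). In this test the gene's overall RNA level cancels only where the peaks lie on the same RNA. It gave peak 8 a log2 difference of 0.77 with an unadjusted p of 0.000286 and an adjusted p of 0.163. That test called 0 of the 49 transporter peaks, against 0.0929% of 31227 peaks tested. At an unadjusted p below 0.05 it had 2 of the 49 (1.26% of all), peak 8 of Slco1b2 and peak 12 of Abcc2. The latter lies past the end of Abcc2 over Gm10768, whose RNA level would not cancel.

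Slco1a1 encodes OATP1A1, a carrier of male mouse liver that transports steroid and bile acid conjugates. Its signal was low and uneven. The 6 peaks summed to 27.9, 4.91 and 3.67 CPM in control and 10.1, 7.50 and 2.76 CPM in cadmium samples. Control replicate 1 alone was high, at more than the sum of the other control samples. The log2 change of -0.84 ± 0.71 (SE) had an interval of -2.44 to 0.76 (adjusted p = 0.489), and without control replicate 1 the estimate was 0.66, with the opposite sign. The excess of control replicate 1 was in peaks 1, 2 and 6, and not in peaks 3, 4 and 5. In peak 6, the most abundant (141908830 to 141909051), it held 15.8 CPM against 0.498 and 1.09 CPM in control replicates 2 and 3 and 2.29, 3.60 and 0.305 CPM in cadmium samples. In peak 1 (141943456 to 141943582), which had the largest fall in estimate of the gene, it held 5.68 CPM against 0.199 and 0.317 CPM, with 0.638, 0.742 and 0.109 CPM in cadmium samples. In peak 3 it held 2.55 CPM, below the 3.40 CPM of cadmium replicate 1. Peaks 3 to 6 also overlap Gm30843, a long noncoding RNA annotated on the opposite strand, and without strand the reads of both genes cannot be told apart. The sum over the other 2 peaks had a log2 change of -1.25 (adjusted p = 0.423). Slco1a1 is also similar in sequence to other Slco1a genes, so its separate count is uncertain.

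Export into bile was represented by Abcb11, the bile salt export pump, and Abcc2, the exporter of bilirubin glucuronides and glutathione conjugates. Both have been described as FXR targets, so the 250 bases before the RefSeq start of each gene (assembly GRCm38.p6) are shown, 5′ to 3′ on the gene's strand. The Abcb11 stretch is chr2:69342617-69342866 on the minus strand and the Abcc2 stretch is chr19:43782058-43782307 on the plus strand. In Abcb11 the capitals mark a match, with 1 mismatch, to the inverted repeat that FXR with its partner RXR is known to bind, AGGTCA followed by any 1 base and TGACCT; in Abcc2 they mark a match to the single element AGGTCA.
Abcb11: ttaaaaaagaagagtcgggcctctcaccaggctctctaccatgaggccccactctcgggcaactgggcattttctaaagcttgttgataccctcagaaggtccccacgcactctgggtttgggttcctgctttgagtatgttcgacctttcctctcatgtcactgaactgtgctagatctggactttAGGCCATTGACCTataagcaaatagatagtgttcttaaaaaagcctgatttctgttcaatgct
Abcc2: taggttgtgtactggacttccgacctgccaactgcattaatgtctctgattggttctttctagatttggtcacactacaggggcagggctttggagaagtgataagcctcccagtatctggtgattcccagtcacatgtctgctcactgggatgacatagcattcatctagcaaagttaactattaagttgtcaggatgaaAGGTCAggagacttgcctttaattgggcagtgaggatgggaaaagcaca
The inverted repeat, searched on both strands with up to 1 mismatch, lay at bases -63 to -51 from the Abcb11 start and was in 27 of 32851 windows of 300 bases around gene starts (0.0822%). The exact inverted repeat was in 3 windows and in neither of these 2 genes. AGGTCA, searched on both strands, lay at bases -49 to -44 of Abcc2 and at bases -56 to -51 of Abcb11, inside the inverted repeat, and was in 16.3% of windows. These are matches of letters only. Other arrangements of the element were not searched, and a bearing on the m6A values was not tested.

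Abcb11 had 12 peaks on chromosome 2, and it was the only one of the 7 genes whose summed estimate was above 0. The sum was 578, 247 and 437 CPM in control and 629, 467 and 501 CPM in cadmium samples. Control replicate 2 was the lowest of all 6 samples, and control replicate 1 was above 2 of the 3 cadmium samples. The log2 change was 0.34 ± 0.27 (SE), a fold of 1.27 with an interval of 0.837 to 1.91, and did not pass the test (edgeR adjusted p = 0.457). Within batches 1, 2 and 3 the cadmium sample differed from the control sample of the same number by 0.12, 0.92 and 0.20. The estimate was 0.07 without control replicate 2, 0.21 without cadmium replicate 1 and 0.64 without control replicate 1. The 12 single peaks had estimates of 0.10 to 0.47, and these peaks share the RNA and the samples, so they are not 12 independent results. The most abundant peak, peak 11 (69238910 to 69239286, at 99.2% of the gene's length), held 115, 57.5 and 93.7 CPM in control and 132, 122 and 115 CPM in cadmium samples, the latter all above the former by a narrow margin. It had the largest estimate of the gene, 0.47 ± 0.22 (SE), with an adjusted p of 0.243; it was 0.23 without control replicate 2 and 0.70 (adjusted p = 0.0851) without control replicate 1, the lowest and highest with a sample left out.

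The low value of control replicate 2 was not even along Abcb11. In peaks 5 to 12 the batch 2 difference lay between 0.83 and 1.14, and in peaks 1 to 3, near the gene's start, between 0.13 and 0.40. Peak 6 (69286606 to 69286796) showed it most: 55.8, 19.0 and 37.5 CPM in control against 56.3, 42.0 and 45.7 CPM in cadmium samples.

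Abcc2 had 12 peaks on chromosome 19, all with estimates below 0. The sum was 513, 547 and 528 CPM in control and 516, 388 and 387 CPM in cadmium samples. Cadmium replicates 2 and 3 were below every control sample, and cadmium replicate 1 lay among the controls. The log2 change was -0.30 ± 0.14 (SE), a fold of 0.814 with an interval of 0.654 to 1.01 (edgeR adjusted p = 0.211). Within batches 1, 2 and 3 the differences were 0.01, -0.49 and -0.45. The most abundant peak, peak 10 (43837437 to 43838230, at 99.1% of the gene's length), held 213, 205 and 213 CPM in control and 192, 146 and 160 CPM in cadmium samples, with no overlap. Its log2 change of -0.34 ± 0.14 (SE) had an unadjusted p of 0.0382 and an adjusted p of 0.198. Peaks 8 and 9 had no overlap either, with log2 changes of -0.18 and -0.19. In peak 9 the 3 control samples held 83.2, 85.2 and 84.2 CPM and the 3 cadmium samples 73.8, 73.3 and 75.0 CPM, a small difference between tight groups.

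**Figure D3:**
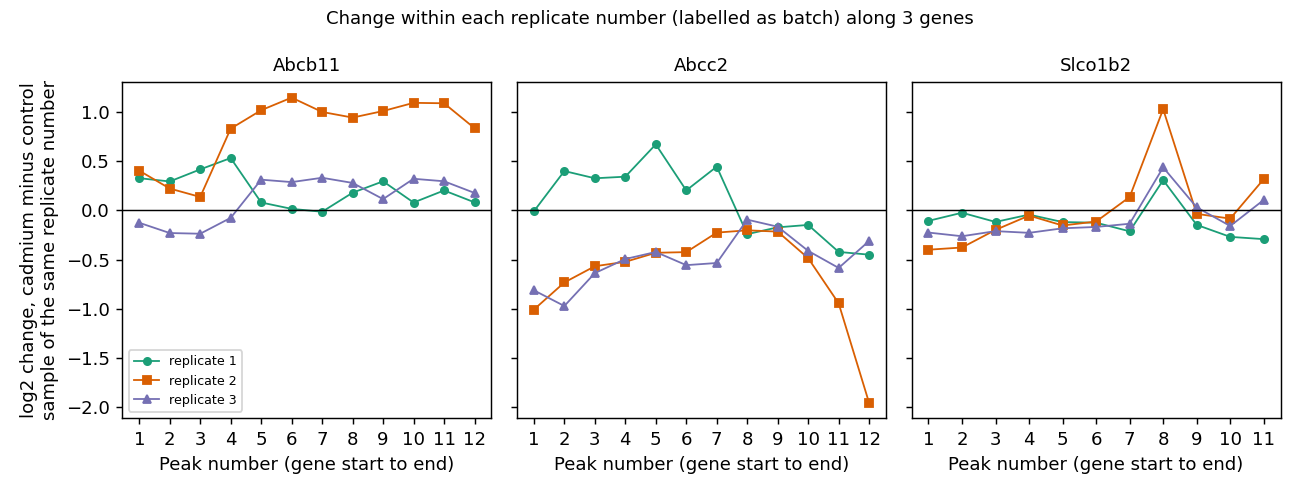
Log2 difference between the cadmium and the control sample of the same replicate number, which the labels also name as batch, for each peak along Abcb11, Abcc2 and Slco1b2. Replicate 2 is the highest in Abcb11 from peak 4 on, replicate 1 lies apart from the other two in peaks 1 to 7 of Abcc2, and peak 8 of Slco1b2 is above 0 in all 3.

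Along Abcc2 the batches had the same sign toward the gene's end and not toward its start. In peaks 8 to 12 the differences of all 3 batches were below 0. In peaks 2 to 7 the batch 1 difference was above 0, at 0.20 to 0.67, while those of batches 2 and 3 were between -0.97 and -0.23. Peak 1 (43782295 to 43782507) lies over the annotated gene start, and was chosen for description after its values were seen. It held 27.1, 25.8 and 25.6 CPM in control and 26.9, 12.8 and 14.6 CPM in cadmium samples. Cadmium replicate 1 was at the level of the controls and the other two were far below it. Its log2 change of -0.53 had an adjusted p of 0.238; without cadmium replicate 1 it was -0.93 with an adjusted p of 0.0185, and without cadmium replicate 2 it was -0.34 with an adjusted p of 0.520.

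Peaks 11 and 12 carry the Abcc2 symbol in the deposited table but start 1480 and 2084 bp past the end of the RefSeq gene, over Gm10768, a long noncoding RNA on the same strand (chromosome 19, 43838803 to 43840845). They had the most negative estimates of the gene. Peak 12 (43840416 to 43840555) held 10.6, 13.6 and 5.98 CPM in control and 7.71, 3.47 and 4.81 CPM in cadmium samples, and control replicate 3 was below cadmium replicate 1. Its log2 change of -0.92 ± 0.33 (SE) had an unadjusted p of 0.0172 and an adjusted p of 0.128; DESeq2 gave -0.93 with an adjusted p of 0.0326. Peak 11 (43839812 to 43840215), singled out after its values were seen, held 26.1, 19.3 and 16.2 CPM in control and 19.4, 10.02 and 10.8 CPM in cadmium samples. Its log2 change was -0.62 with an adjusted p of 0.203. With the replicate number as a block it was -0.65 with an adjusted p of 0.0338, and without cadmium replicate 1 it was -0.98 with an adjusted p of 0.0443. The sum of Abcc2 without these 2 peaks had a log2 change of -0.28 (adjusted p = 0.232), close to that with them.

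Export back to blood was represented by Abcc3 and Abcc4, exporters of glucuronides and bile acids on the sinusoidal side. Abcc3 had 2 peaks on chromosome 11, and its summed estimate was the nearest to 0 of the 7 genes. The sum was 78.0, 82.7 and 82.9 CPM in control and 70.8, 81.2 and 85.0 CPM in cadmium samples, so that cadmium samples were both the lowest and the highest. The log2 change was -0.04 ± 0.11 (SE), a fold of 0.974 with an interval of 0.816 to 1.16 (edgeR adjusted p = 0.865). The sign of this value turned under another scaling (0.012 with upper-quartile factors). Its most abundant peak (94343323 to 94343774) had a log2 change of -0.01, which turned to 0.030 under that scaling.

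Abcc4 had 2 peaks on chromosome 14 and few counts. The sum was 1.74, 4.20 and 3.43 CPM in control and 2.67, 1.55 and 2.80 CPM in cadmium samples. Each group held a sample below 2 CPM, and within batches 1, 2 and 3 the differences were 0.61, -1.43 and -0.29. The log2 change of -0.42 ± 0.34 (SE) had an interval of -1.19 to 0.34 (adjusted p = 0.471). It was -0.14 without control replicate 2, -0.18 without cadmium replicate 2 and -0.71 without control replicate 1. The most abundant peak (118484137 to 118484305) held 82, 180 and 130 counts in control and 106, 83 and 134 counts in cadmium samples, a log2 change of -0.25 (adjusted p = 0.705), which was -0.51 without control replicate 1, -0.46 without cadmium replicate 3, -0.0029 without control replicate 2 and -0.0067 without cadmium replicate 2. The smaller peak (118482782 to 118482888) held 12, 61 and 41 counts in control and 20, 16 and 14 counts in cadmium samples. Control replicate 1 was the lowest of the 6 and the other two controls were the highest. Its log2 change was -1.17, with an interval of -2.36 to 0.02 and an adjusted p of 0.238; without control replicate 2 it was -0.72.

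Levels can be compared between genes only per length of peak. Per kilobase of summed peak the control level was 564 ± 38.7 CPM (SD, n = 3) for Slc10a1 and 278 ± 26.0 CPM for Slco1b2. Abcb11 (146 ± 57.9 CPM), Abcc3 (145 ± 4.96 CPM) and Abcc2 (116 ± 3.70 CPM) followed. Slco1a1 (12.2 ± 13.7 CPM) and Abcc4 (11.4 ± 4.58 CPM) were far lower. The same genes led in cadmium samples, with 499 ± 28.7 for Slc10a1, 252 ± 17.0 for Slco1b2, 185 ± 29.6 for Abcb11, 141 ± 13.1 for Abcc3 and 94.4 ± 16.2 CPM for Abcc2. Abcc4 (8.54 ± 2.50 CPM) and Slco1a1 (6.81 ± 3.72 CPM) were last in the reverse order. Neighbours in this order that did not differ beyond their spread were Abcb11 and Abcc3 in control samples, and Slco1a1 and Abcc4 in both groups. The spread between samples also differed between genes: the coefficient of variation in control samples was 3.19% for Abcc2 and 3.43% for Abcc3, but 39.6% for Abcb11 and 112% for Slco1a1. In cadmium samples it was 17.2% for Abcc2 and 16.0% for Abcb11.

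The transporters shared a position of their strongest peak, which the choice of genes did not use. In 6 of the 6 genes with an annotated strand the most abundant peak lay in the last 5% of the gene's length, at 95.8 to 99.3%. For Slco1a1 this rests on 1 sample: peak 6 held 15.8 CPM in control replicate 1 and 0.305 to 3.60 CPM in the other samples. Its peak 3, at 71.4% of the gene's length, held 0.951 to 3.40 CPM. Both peaks overlap Gm30843, on the opposite strand. A place in the last 5% held for 31.9% of 9180 genes placed in the same way. m6A is known to be frequent near stop codons and in 3′ untranslated regions, and exon, intron and UTR positions were not analysed here. The first peaks of Abcc2 and Slco1b2 lay at the opposite end, within 0.24% of the gene's length from its start.

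The genes whose most abundant peak followed each transporter most closely over the 6 samples are given as a description, from 6525 or 6526 genes compared by Pearson's r of log2 levels. Both values of a sample come from the same library and share its depth. Abcb11 was followed by Ggcx (r = 0.988), Ccdc9 (r = 0.978) and Stk25 (r = 0.976), all lowest in control replicate 2. Abcc2 was followed by Cyp3a25 (r = 0.991), Chpt1 (r = 0.987) and Pls3 (r = 0.985). Cyp3a25 held 200, 206 and 204 CPM in control and 166, 107 and 122 CPM in cadmium samples (log2 change -0.63, adjusted p = 0.0557). Slc10a1 was followed by Dusp11 (r = 0.997), Abca1 (r = 0.994) and Ube4a (r = 0.992), and Slco1b2 by Kcmf1 (r = 0.974), Rfk (r = 0.961) and Rnf128 (r = 0.960). Abcc3 was followed by Eci1 (r = 0.988), Hsd17b10 (r = 0.986) and Mxd3 (r = 0.985), whose peak also carries the symbol Prelid1. The low-count Slco1a1 and Abcc4 had the loosest followers, with Nudt7 (r = 0.938) and Rpl19-ps11 (r = 0.946) first.

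Around the transporters, 4 lists of bile acid genes were described by the most abundant peak of each gene, of which 6.8% were called among all 13050 genes (4.4% higher and 2.4% lower). The median log2 change of all genes was 0.02. Of the other transporters of bile acids, conjugates and biliary lipids, 18 of 20 listed genes had a tested peak, 0 were higher, 1 was lower and the median was -0.00. The lower one was Abcb1a, a canalicular drug exporter of the same ABC family as Abcb11. It held 6.82, 7.13 and 6.14 CPM in control and 3.71, 3.60 and 3.31 CPM in cadmium samples, and fell by 0.92 in log2 units with an SE of 0.16 (edgeR adjusted p = 0.0107). Among its most abundant uncalled genes were Abcg8, a subunit of the sterol exporter into bile (-0.16, adjusted p = 0.526), and Slco2b1, an organic anion carrier (0.10, adjusted p = 0.725). Slco1a4, a relative of Slco1a1 on the same chromosome, was singled out after its values were seen: 34.9, 26.3 and 25.3 CPM in control and 21.1, 16.2 and 17.9 CPM in cadmium samples. The groups did not overlap, and its log2 change of -0.65 missed the threshold for this peak (adjusted p = 0.0562; 0.0237 with the replicate block) and passed it for the sum of its 3 peaks (adjusted p = 0.0242). With the block the list thus had 2 called genes of 18, against 9.38% of all genes in that fit.

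Bile acid synthesis and conjugation had 17 of 17 genes tested, 2 higher, 2 lower and a median of -0.16. Cyp7a1, the rate-limiting enzyme of the classical pathway, held 124, 284 and 362 CPM in control and 38.8, 84.8 and 61.0 CPM in cadmium samples, and fell by 2.06 in log2 units with an SE of 0.37 (adjusted p = 0.0111). Cyp8b1, which sets the share of cholic acid, rose from 211 ± 112 to 669 ± 48.6 CPM (SD, n = 3 per group, log2 change 1.66, edgeR adjusted p = 0.0197). Cyp39a1, an oxysterol hydroxylase, fell by 1.01 in log2 units (adjusted p = 0.00537), and Hsd3b7, the next enzyme after the hydroxylases, rose by 1.03 (adjusted p = 0.00579), in a peak that also carries the symbol Gm49388. The most abundant uncalled genes were Ugt1a1, which conjugates bilirubin (-0.19, in a peak shared by the whole Ugt1a cluster), Baat, which couples bile acids to taurine (-0.18), and Slc27a2 (-0.37), an acyl-CoA synthetase.

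Receptors and regulators had 16 of 18 genes tested, 0 higher, 1 lower and a median of -0.20. Cebpb, a liver transcription factor whose peak also carries the symbol Tmem189, fell by 1.09 in log2 units (adjusted p = 0.0161). The uncalled genes with the highest levels were Hnf4a (-0.35, adjusted p = 0.154), Ppara (-0.20, adjusted p = 0.490) and Rxra (-0.15, adjusted p = 0.665), nuclear receptors of the hepatocyte. Nr0b2, the FXR-induced repressor SHP, is named for its role, after its values were seen: 35.8, 93.0 and 46.9 CPM in control and 42.5, 17.9 and 25.0 CPM in cadmium samples (-1.04, adjusted p = 0.126). Cadmium replicate 1 lay among its controls. With the replicate number as a block, 5 of the 16 regulators were called, against 9.38% of all genes in that fit. These were Cebpb and 4 genes named after their values were seen: FXR itself (Nr1h4, -0.53, adjusted p = 0.0810 without and 0.0334 with the block), the xenobiotic receptors Nr1i3 (-0.68, 0.0525 and 0.0193) and Nr1i2 (-0.52, 0.0654 and 0.0489), and Stat5b (0.71, 0.129 and 0.0364), which relays growth hormone. Nr1h4 held 113, 144 and 138 CPM in control and 79.7, 107 and 86.6 CPM in cadmium samples, without overlap.

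Anchoring and trafficking of the transporters had 12 of 13 genes tested, 1 higher, 1 lower and a median of 0.13. Cgn, the tight junction protein cingulin, held 11.3, 13.6 and 12.8 CPM in control and 27.3, 20.5 and 23.7 CPM in cadmium samples, and rose by 0.92 in log2 units (adjusted p = 0.00991); 11 of its 14 peaks were called. Slc9a3r1, the scaffold NHERF1 that links membrane proteins to ezrin and radixin, held 270, 297 and 228 CPM in control and 154, 158 and 161 CPM in cadmium samples. It fell by 0.75 in log2 units (adjusted p = 0.0148). Radixin itself (Rdx, which tethers Abcc2 at the canaliculus) had a log2 change of 0.09, Myo5b of 0.14 and Pdzk1 of -0.22, none called. Without cadmium replicate 3 the calls of Abcb1a, Cyp7a1, Cyp8b1, Cebpb, Cgn and Slc9a3r1 were lost, with adjusted p of 0.0537 to 0.0774, and those of Cyp39a1 and Hsd3b7 were kept; Cebpb was also lost without control replicate 3.

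**Figure D4:**
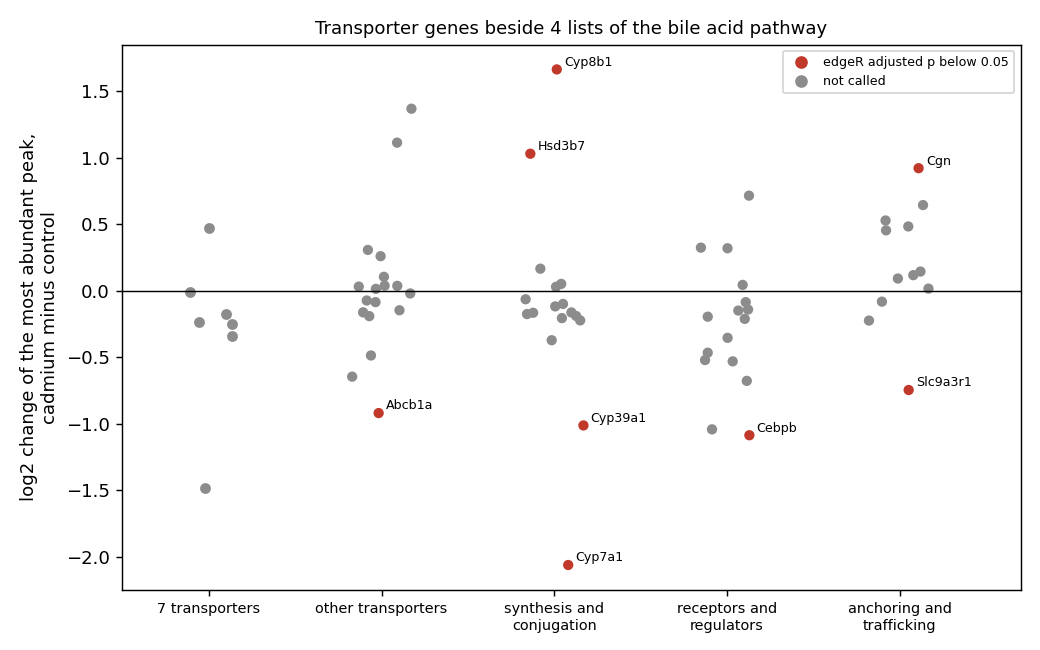
Log2 change (cadmium minus control) of the most abundant peak of each gene, for the 7 transporters and for 4 lists of bile acid pathway genes, with called genes named and in red. No transporter among the 7 is called, where values run from -1.48 (Slco1a1) to 0.47 (Abcb11), and the called genes of the lists run from -2.06 (Cyp7a1) to 1.66 (Cyp8b1).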

How the data were processed

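RNA fragments bound by an m6A antibody were sequenced from 3 control and 3 cadmium liver samples; the submitters' processing notes name, on mm10, MACS2 2.1.1, STAR 2.7.1a, cutadapt 1.1.8, DESeq2 4.1.0 (the version as stated there) and SAMtools 1.3.1. The deposited table holds raw counts of 37118 peaks in 6 columns, not normalised as far as the values show. Its headers are library numbers shared by immunoprecipitated and input libraries, and reading them as immunoprecipitated counts is an assumption, while their groups follow from the labels. Per peak the authors deposited a p-value, its adjusted value, a log2 fold change and a call. Peak calling per sample or on pooled samples, strand and multiple matches are not given in the sources used here.

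Counts were fitted with edgeR 4.0.16 (R 4.3.3; TMM, filterByExpr with minimum count 10 and minimum total 15, quasi-likelihood F test without a block), per peak, per gene sum and per peak against the other peaks of its gene. The call rule was an adjusted p (Benjamini-Hochberg) below 0.05. SE was taken as |log2 change| over the root of F, and intervals use its t quantile. The biological coefficient of variation was 19.4%, and replicate pairs differed by more than sampling noise (chi-square per degree of freedom 31.9 to 161). Deviations from group means correlated at 0.146, 0.214 and 0.174 within batches and at -0.173 to 0.016 across them. Such deviations cancel out within each group, so part of this contrast is built in. A pairing of the samples by labelled batch was not tested. The main fits, with their intervals and p-values, do not use this pairing. The blocked fit, which called 3144 of all peaks against 2325 in the main fit, is an alternative. DESeq2 1.42.0 was another. The per-peak edgeR fit, its blocked form, DESeq2 and the test within genes were tried on simulated counts. These had the same dispersion for all peaks and no batch differences. The fits of gene sums, the other scalings and filters and the fits with a sample left out were not simulated.

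Of each transporter the most abundant peak and those with the largest rise and fall were named; of each list, every gene whose most abundant peak was called and up to 3 uncalled genes of highest level. For 1 list a gene that the rule names is not reported here. For likeness, the 3 genes with the highest r were taken. Members and lists were chosen with earlier results of these data known. Promoter sequences and gene bounds are from RefSeq tables of GRCm38.p6, which held 6 of the 7 genes in the promoter table.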

Additional observations from a re-analysis of the deposited data

How the results depend on the processing

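The 2 sums without peaks over another gene were added after seeing the data. At this depth and with 3 samples a group, a 2-fold change lay inside the interval of 14 of the 49 transporter peaks. DESeq2 called 3710 of all peaks and 1 transporter peak; the replicate block also called 1 transporter peak and changed no other call of the 7 transporters. Leaving out 1 sample gave 543 to 1976 called peaks in all (543 without cadmium replicate 3, 1078 without control replicate 3), 0 to 2 transporter peaks (2 without cadmium replicate 1) and 350 to 1020 gene sums (350 without cadmium replicate 3, 702 without control replicate 3). Peaks that departed from their gene numbered 29, 13 with peaks of 1 symbol only and 8 to 28 with a sample left out. Of all 13050 genes, 1227 had any called peak, 10.2% were called by gene sum and 9.38% with the replicate block. With DESeq2 or a sample left out, no such share per gene was taken. Of the 18 other transporters, 2 were called by any called peak, by gene sum, with DESeq2 and with the replicate block. With a sample left out it was 0 to 2. For the 17 synthesis genes the count was 5 by any called peak and 2 to 4 with a sample left out. It was 4 by gene sum, with DESeq2 and with the replicate block. For the 16 regulators it was 5 by any called peak and with the replicate block. It was 4 by gene sum and with DESeq2, and 0 to 2 with a sample left out. For the 12 anchoring genes it was 5 by gene sum and 0 to 2 with a sample left out. The sign turned for the Abcc3 sum (0.012 with upper-quartile factors; -0.094 to 0.050 with a sample left out, the highest without cadmium replicate 1) and its most abundant peak (0.030 with upper-quartile factors, 0.031 without control replicate 2; -0.074 to 0.10, the highest without cadmium replicate 1). Without control replicate 1 it turned for the Slco1a1 sum (-1.27 to 0.66 over the samples left out), peak 6 (-2.19 to 1.40) and peak 1 (-2.60 to 0.96), the highest values being those without it. The causes were not tested. The smaller Abcc4 peak had no value under a mean count minimum of 50.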

Other observations

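The authors' deposited table calls 1573 peaks Up or Down (4.24% of all peaks), and these are exactly the peaks with an unadjusted p below 0.05 and an absolute log2 change of 1 or more. Among the 49 transporter peaks the authors' deposited table calls only 1, the smaller peak of Abcc4, as Down, with a log2 change of -1.17, an unadjusted p of 0.0380 and an adjusted p of 0.198. This is the transporter peak with 12 to 61 counts in control and 14 to 20 counts in cadmium samples. In the authors' deposited table peak 12 of Abcc2, over Gm10768, has an adjusted p of 0.0327 and is not called, its absolute log2 change being under 1. Peak 1 of Slco1a1 has no p-value in the authors' deposited table.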
